A study of Homo sapiens with 10 samples.

Results

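The p53 target genes described here are 33 genes that the transcription factor p53 is known to switch on. They were taken as a fixed list of symbols, chosen with earlier results of these data known, so comparisons with all genes are descriptive. Each gene was represented by the probe set with the highest mean log2 signal over the 10 arrays. Only probe sets whose annotation gives that symbol alone were used. Of the 33 genes, 31 had such a probe set, out of 19775 genes on the array. BTG2 and FDXR were not paired with a probe set in the annotation used here and were not analysed here. A filter on low signal, a mean of at least 76.2, the median of all probe sets, left 12344 genes to be tested, 30 of the list among them. EDA2R, a receptor of the tumor necrosis factor family, was the 1 measured gene that did not reach the filter. It lay under the background level on 3 of 3 control arrays, 2 of 3 serum-starved arrays and 4 of 4 arrays of ADMA-treated cells, and no level is given for it.

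The cells were LoVo, an established human colorectal adenocarcinoma line that is generally described as carrying wild-type p53. Control cells (C, 3 cultures) were kept in medium with 10% fetal bovine serum, serum-starved cells (SS, 3 cultures) in the same medium without serum, and ADMA-treated cells (ADMA, 4 cultures) in serum-free medium with 10 μM asymmetric dimethylarginine, a methylated arginine that inhibits nitric oxide synthases. All were harvested after 96 h, and each culture was hybridized to its own Affymetrix HG-U133 Plus 2.0 array. The comparisons ask what serum starvation does to gene expression and whether ADMA attenuates it, in 1 cell line with no group that received ADMA in serum. The labels call the samples biological replicates.

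p53 is held at a low level in unstressed cells by MDM2, a ubiquitin ligase that marks it for degradation and that is itself a p53 target. Stress releases p53, which then binds DNA as a tetramer at a pair of decamers and activates genes for cell cycle arrest, DNA repair, cell death and metabolism, together with genes that shut p53 off again. In intestinal epithelium these genes are best known from the response to irradiation, and they also respond to nutrient and ribosome stress.

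The promoters of some members hold these p53 decamers close to a start site, and 4 are shown because they belong to genes whose signal differed between the groups. The windows, from RefSeq on GRCh38.p14, run from 250 bases before to 50 bases after each listed start, and 26 of the 33 genes have one. Each decamer holds 3 purines, a C, 2 bases that are A or T, a G and 3 pyrimidines, and reads the same on both strands. A full site was taken as 2 adjacent decamers with at most 1 base between them and at most 2 mismatches outside the C and G of each. Capitals mark the site. The sequences are written 5′ to 3′ along the gene and end at the base before the start site, except that of DDB2, whose site lies 6 to 26 bases into the transcript and which ends there. The DDB2 start used lies 520 bases downstream of the first one listed for the gene.
DDB2, chr11:47214724-47214999, plus strand, full site with 0 mismatches and 1 base between the decamers: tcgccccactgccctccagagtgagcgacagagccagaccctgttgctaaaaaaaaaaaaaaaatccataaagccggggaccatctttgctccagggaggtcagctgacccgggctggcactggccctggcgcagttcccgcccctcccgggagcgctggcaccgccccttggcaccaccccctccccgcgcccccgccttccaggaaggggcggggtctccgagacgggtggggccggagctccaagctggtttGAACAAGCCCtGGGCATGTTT
MDM2, chr12:68808767-68809016, plus strand, full site with 2 mismatches, 94 to 75 bases before a start that lies 845 bases downstream of the first listed one: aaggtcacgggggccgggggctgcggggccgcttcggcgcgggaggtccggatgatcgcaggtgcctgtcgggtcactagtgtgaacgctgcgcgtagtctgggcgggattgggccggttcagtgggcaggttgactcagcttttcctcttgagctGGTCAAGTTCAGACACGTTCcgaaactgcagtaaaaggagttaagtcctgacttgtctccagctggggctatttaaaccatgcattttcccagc
AEN, chr15:88621090-88621339, plus strand, full site with 2 mismatches, 34 to 15 bases before the start: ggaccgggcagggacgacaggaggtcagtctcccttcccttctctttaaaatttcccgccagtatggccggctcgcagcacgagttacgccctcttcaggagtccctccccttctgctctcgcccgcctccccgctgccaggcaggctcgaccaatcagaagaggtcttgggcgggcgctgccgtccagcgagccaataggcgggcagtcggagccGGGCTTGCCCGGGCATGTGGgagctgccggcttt
PLK2, chr5:58460087-58460336, minus strand, a single decamer 132 to 123 bases before the start: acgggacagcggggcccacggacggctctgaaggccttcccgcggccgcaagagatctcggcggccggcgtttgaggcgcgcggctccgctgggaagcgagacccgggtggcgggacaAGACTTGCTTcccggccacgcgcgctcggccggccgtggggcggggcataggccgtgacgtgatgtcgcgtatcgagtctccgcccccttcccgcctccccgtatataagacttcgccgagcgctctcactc

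SESN1 and RPS27L also hold a single decamer, which is shown with its flanks. SESN1 was higher in serum-starved cells, and RPS27L did not pass the test at its brightest probe set. The SESN1 start lies 85858 bases downstream of the first one listed for the gene.
SESN1, chr6:109009018-109009047, minus strand, decamer 49 to 40 bases before the start: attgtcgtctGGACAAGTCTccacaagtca
RPS27L, chr15:63157517-63157546, minus strand, decamer 59 to 50 bases before the start: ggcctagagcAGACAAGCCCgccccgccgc
Of the 35 windows of the 24 measured members that have one, 5 windows of 5 genes held an exact decamer, or 14.3%, against 6.63% of all 35116 windows. A full site was found in 4 windows of 3 measured genes, or 11.4%, against 0.533% of all windows. The MDM2 windows with starts at 68809017 and 68809024 hold the same site, which is therefore counted repeatedly. The members were listed as known p53 targets, so a share above that of all windows is no separate evidence. These are matches of letters in a short window. p53 binding was not measured here, and p53 sites of other members can lie outside the window.

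The deposited values are MAS 5.0 intensities scaled by the authors, and they were compared here on the log2 scale with limma over all 10 arrays. A gene is said to have risen or fallen where it passed both a Benjamini-Hochberg adjusted p under 0.01 over the 12344 genes and a fold of 1.2 or more. The scaling gave every array a trimmed mean of 500.1, while the median signal ran from 60.7 to 73.1 on the C arrays, from 87.5 to 90.7 on the SS arrays and from 91.9 to 98.1 on the ADMA arrays. Control probe sets for 28S ribosomal RNA averaged 345 to 429, 1068 to 1653 and 671 to 935 in the 3 groups, and the ratio of 3' to 5' ACTB control signal was 1.01 to 1.08, 1.13 to 1.23 and 1.02 to 1.05. Of 14 colon epithelial markers 13 passed the filter, among them EPCAM, CDH17, VIL1 and CDX2. Their summed signal was 81986 to 82981 in control, 113772 to 128976 in serum-starved and 142840 to 160657 in ADMA-treated cells. With serum starvation 6 of them rose and 3 fell, CDX2 2.52-fold, and with ADMA 8 rose, CDX2 2.32-fold, and 1 fell. The summed signal of 5 leukocyte markers was 562 to 832, 4108 to 4755 and 1502 to 2201. LYZ, which intestinal Paneth cells also make, held 67.4 to 95.4% of this sum, while PTPRC and CD14 lay under the background level on all 10 arrays. Markers of fibroblasts summed to 703 to 1013 over the 10 arrays, with 3 of 8 past the filter. Of these, LUM rose 2.77-fold with serum starvation and fell with ADMA at a log2 difference of -0.90, and was under background on 1 control array. COL3A1, which did not reach the filter, went the other way with serum starvation. Its log2 signals were 7.33, 6.90 and 7.86 in control cells and 3.19 to 4.02 in serum-starved cells. It was under background on all 3 serum-starved and all 4 ADMA arrays. Endothelial markers summed to 199 to 367, with 1 of 4, and erythroid and serum protein markers to 249 to 414, with 1 of 3. The 28S and ACTB values, LYZ and LUM move in the same order as many of the p53 target genes, and their part in the results was not tested. Lower signal in a culture can mean less RNA per cell or fewer cells that express the gene, and the arrays cannot tell these apart.

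Most p53 target genes were higher in serum-starved than in control cells. Compared with control cells, 24 of the 30 tested genes rose in serum-starved cells and 1 fell, while 57.6% of all tested genes were called, 30.3% as higher and 27.3% as lower. The median log2 difference over the 31 measured genes was 0.86, against 0.07 over all 12344 tested genes. With ADMA, 23 of the 30 fell from the serum-starved level and 0 rose, while 29.5% of all tested genes were called, 13.8% as lower and 15.7% as higher. By limma's unadjusted p under 0.05, 1 of the 30, CMBL, was higher with ADMA. The median over the 31 measured genes was -0.75, against 0.03 over all tested genes. Both comparisons rest on the same 3 serum-starved arrays, so an error on those arrays enters both with opposite sign. Against control cells, ADMA-treated cells had 11 of the 30 genes higher and 2 lower. Of all tested genes 49.8% were called, 26.6% as higher and 23.2% as lower. The total called, 43.3% of the tested members, lies near that background. By direction, 36.7% of the members were higher and few were lower, counts that turn on the scaling described below.

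The arrays of the groups were mostly apart. Of the 31 measured genes, 26 had every serum-starved array above every control array and 1 had every one below, where 37.9% and 33.3% of all tested genes did so. With ADMA, 23 of the 31 lay wholly below the serum-starved arrays and 1, FUCA1, wholly above, against 21.8% and 24.3% of all tested genes. ADMA-treated and control cells were apart in 15 genes upward and 6 downward, against 32.9% and 29% of all tested genes.

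**Figure D1:**
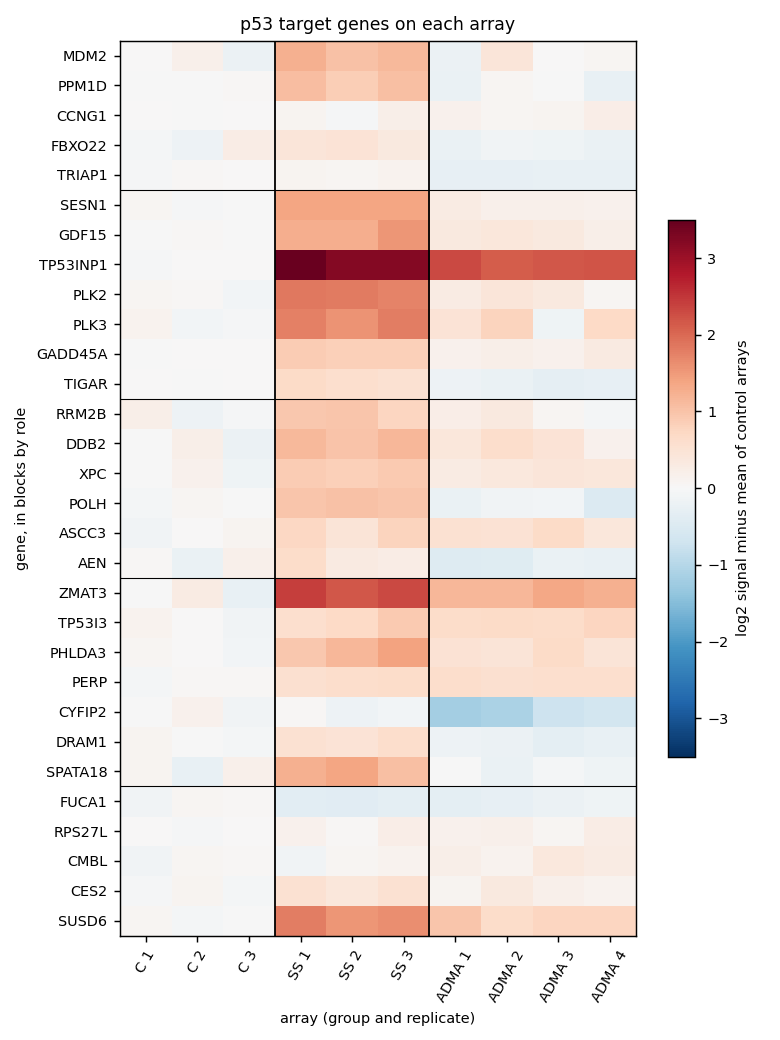
Log2 signal of the 30 tested p53 target genes on each of the 10 arrays (columns: C, control; SS, serum-starved; ADMA, ADMA-treated) as the difference from the mean of the 3 control arrays, in colour from blue (lower) to red (higher), with genes in blocks by role. The SS columns are red for most genes, with TP53INP1 the darkest, and the ADMA columns are paler, while CYFIP2 is blue with ADMA.

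The counts depend on how arrays are scaled. Centring each array on its median lowers every log2 difference between serum-starved and control cells by 0.39, and then 16 of the 30 genes rose and 3 fell, beside 16.3% and 42% of all genes. FBXO22, TIGAR, ASCC3, AEN, TP53I3, PERP, DRAM1 and CES2 were no longer called, and CCNG1 and CMBL were called as lower, at -0.30 and -0.36. For ADMA against serum-starved cells the shift is -0.12, and the same 23 genes fell, beside 17% of all genes. Quantile normalization kept all 25 calls of serum starvation and 22 of the 23 of ADMA. Among all genes it called 27.2% as higher and 28.6% as lower with serum starvation, and 14% as lower with ADMA.

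Of the 5 genes grouped here under control of p53, 3 rose with serum starvation, beside 30.3% of all tested genes. The groups by role used here and below hold few genes each. MDM2, the ligase that degrades p53, had log2 signals of 11.17, 11.31 and 10.94 in control cells, 12.38, 12.18 and 12.27 in serum-starved cells and 10.94, 11.57, 11.16 and 11.22 with ADMA. Serum-starved cells were above every other array, and control and ADMA-treated cells overlapped. MDM2 rose 2.20-fold with serum starvation (log2 difference 1.13, standard error 0.13, adjusted p = 1.76e-06) and fell with ADMA (log2 difference -1.05, standard error 0.12, adjusted p = 9.41e-06). PPM1D, the WIP1 phosphatase that dephosphorylates p53 and its kinases, had 10.49, 10.50 and 10.54 in control cells, 11.60, 11.37 and 11.55 in serum-starved cells and 10.27, 10.57, 10.50 and 10.25 with ADMA. It showed the same order, with a rise of 1.0 (standard error 0.09, adjusted p = 1.96e-07) and a difference of -1.11 (standard error 0.09, adjusted p = 2.64e-07) when ADMA was present. FBXO22, part of a ubiquitin ligase that acts on methylated p53, rose by 0.41 (standard error 0.09) and fell with ADMA, at -0.60 (standard error 0.09).

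TRIAP1, a small mitochondrial protein that restrains cell death, behaved differently. Its log2 signals were 12.55, 12.63 and 12.63 in control cells, 12.71, 12.67 and 12.72 in serum-starved cells and 12.31, 12.31, 12.35 and 12.33 with ADMA, so that the ADMA arrays were the lowest of the 10. Its difference with serum starvation was 0.10 (standard error 0.05, adjusted p = 0.0948), which did not pass the test, and with ADMA it fell below both serum-starved cells, at -0.38 (adjusted p = 2.04e-05), and control cells, at -0.28 (adjusted p = 0.000121). The latter call was lost with quantile normalization, at -0.16, where the fold missed 1.2. CCNG1, cyclin G, which recruits a phosphatase to MDM2, lay between 14.03 and 14.29 on all 10 arrays and passed no test, at 0.09 (standard error 0.06) with serum starvation and 0.04 (standard error 0.06) with ADMA.

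The genes of growth arrest and stress signaling moved together. All 7 that were measured rose with serum starvation, by a median log2 difference of 1.38, beside 30.3% of all tested genes. With ADMA all 7 fell, by a median of -1.10, beside 13.8% of all tested genes. TP53INP1, a stress protein that promotes p53 phosphorylation and autophagy, had log2 signals of 8.58, 8.64 and 8.63 in control cells, 12.08, 11.84 and 11.83 in serum-starved cells and 10.93, 10.73, 10.79 and 10.82 with ADMA. The 3 groups stood apart with no overlap, and the ADMA arrays lay closer to the serum-starved arrays than to those of control cells. It rose 9.86-fold, by 3.30 (standard error 0.08, adjusted p = 4.58e-13), the largest change of the members when each is read from its brightest probe set. With ADMA it fell, at -1.10 (standard error 0.08, adjusted p = 8.32e-08), and stayed above control cells by 2.20 (standard error 0.08, adjusted p = 1.4e-11). With the mean of its probe sets, 2 of which lie under the filter, TP53INP1 differed by 1.56 with serum starvation and by 0.56 from control cells with ADMA, which did not pass the test (adjusted p = 0.0683).

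PLK2, a polo-like kinase of the stress response, whose promoter decamer is printed above, had 10.68, 10.66 and 10.53 in control cells, 12.47, 12.44 and 12.35 in serum-starved cells and 10.91, 11.04, 10.96 and 10.69 with ADMA. Its rise was 3.48-fold (1.80, standard error 0.08, adjusted p = 1.51e-10), and its decrease with ADMA, at -1.52 (standard error 0.08, adjusted p = 7.88e-09), was the largest of the members. ADMA-treated cells were above control cells by 0.27 (adjusted p = 0.00732), a call that was lost when any of 7 single arrays was left out (control replicates 1 to 3, serum-starved replicate 2 and ADMA replicates 1 to 3), with differences of 0.23 to 0.30. PLK3, a second kinase of this family, had 8.42, 8.19 and 8.24 in control cells, 10.06, 9.85 and 10.09 in serum-starved cells and 8.76, 9.07, 8.12 and 8.99 with ADMA. The ADMA arrays of PLK3 were spread widely, with replicate 3 below every control array, yet all 4 lay below the serum-starved arrays. It rose by 1.72 (standard error 0.19) and fell with ADMA, at -1.26 (standard error 0.18, adjusted p = 6.65e-05). The mean of its 3 probe sets gave -0.57 for ADMA, which did not pass the test (adjusted p = 0.0898).

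SESN1, a sestrin that restrains the growth kinase mTORC1 when amino acids are scarce, was tightly grouped: 9.80, 9.67 and 9.70 in control cells, 11.10, 11.10 and 11.10 in serum-starved cells and 10.01, 9.90, 9.89 and 9.87 with ADMA. It rose by 1.38 (standard error 0.07, adjusted p = 3.99e-10) and fell with ADMA, at -1.18 (standard error 0.07, adjusted p = 1.4e-08), and all 4 ADMA arrays remained above the 3 control arrays by a difference of 0.20 that did not pass the test (adjusted p = 0.0196). GDF15, a secreted stress hormone of the TGF-beta superfamily, had 12.58, 12.61 and 12.55 in control cells, 13.85, 13.84 and 14.12 in serum-starved cells and 12.92, 12.96, 12.91 and 12.78 with ADMA. The groups did not overlap, with a rise of 1.36 (standard error 0.07), a decrease with ADMA at -1.05 (standard error 0.07) and a remaining difference from control cells of 0.31 (standard error 0.07, adjusted p = 0.00115). With the mean of its probe sets, of which only the brightest reached the filter, this remaining difference was 0.19 and did not pass the test (adjusted p = 0.467). GADD45A, which links DNA damage to cell cycle arrest and stress kinases, rose by 0.86 (standard error 0.06) and fell, at -0.66 (standard error 0.06). TIGAR, a phosphatase that slows glycolysis, rose by 0.59 (standard error 0.06) and fell, at -0.84 (standard error 0.06). With ADMA all 4 arrays of TIGAR were below the 3 control arrays, at a difference of -0.25 whose adjusted p was 0.00201 and whose fold of 1.19 missed the threshold.

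**Figure D2:**
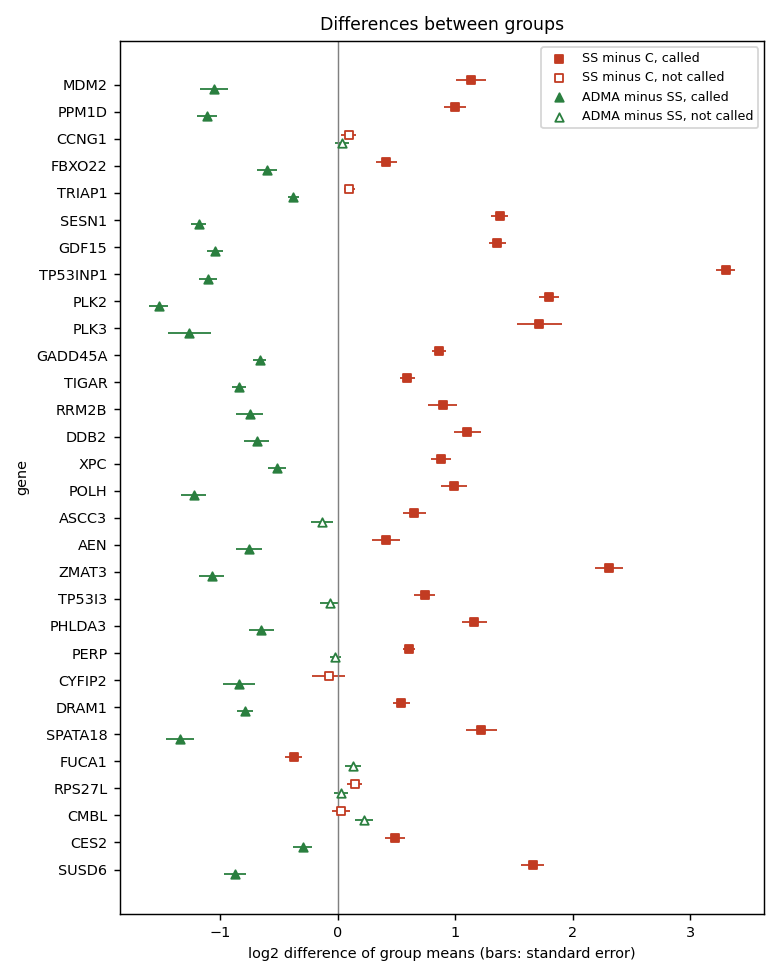
Log2 differences of group means for the 30 tested p53 target genes (horizontal axis; bars, standard error from limma), with squares for the effect of serum starvation (SS minus C) and triangles for that of adding ADMA (ADMA minus SS), filled where called. Filled squares lie to the right of 0 for 24 genes and to the left for FUCA1, filled triangles lie to the left for 23 genes, and the 2 differences share the serum-starved arrays.

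The 6 genes grouped here under DNA repair and nucleotide supply include AEN, a nuclease of apoptosis. All 6 rose with serum starvation, by a median of 0.89, beside 30.3% of all tested genes. With ADMA 5 of 6 fell, beside 13.8% of all tested genes. DDB2, which recognizes ultraviolet damage and whose full p53 site is printed above, had 10.64, 10.88 and 10.47 in control cells, 11.80, 11.66 and 11.82 in serum-starved cells and 11.06, 11.28, 11.13 and 10.82 with ADMA. Serum-starved cells were above all other arrays, while ADMA-treated cells lay between the groups, except that ADMA replicate 4 was below control replicate 2. DDB2 rose by 1.10 (standard error 0.11, adjusted p = 5.91e-07), fell with ADMA, at -0.69 (standard error 0.11, adjusted p = 0.000124), and stayed above control cells by 0.41 (adjusted p = 0.00355), a call lost without control replicate 1 or 3 or ADMA replicate 2, at 0.40, 0.31 and 0.34. POLH, the polymerase that copies past ultraviolet damage, had 8.93, 9.09 and 9.01 in control cells, 9.99, 10.05 and 9.97 in serum-starved cells and 8.78, 8.89, 8.91 and 8.53 with ADMA. In POLH every ADMA array lay below every control array, though that difference, -0.24 (adjusted p = 0.0565), did not pass the test. Its rise was 0.99 (standard error 0.11) and its decrease with ADMA -1.23 (standard error 0.10, adjusted p = 4.79e-07).

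XPC, the damage sensor of nucleotide excision repair, rose by 0.88 (standard error 0.08), fell with ADMA, at -0.51 (standard error 0.08), and stayed 0.37 above control cells (adjusted p = 0.000805). RRM2B, the p53-inducible subunit of ribonucleotide reductase, rose by 0.89 (standard error 0.12) and fell, at -0.75 (standard error 0.12), to a level that overlapped with control cells. AEN, a nuclease of apoptosis whose promoter is printed above, had the smallest rise of those called, 0.41 (standard error 0.12, adjusted p = 0.00627). This call was lost without control replicate 1, control replicate 2 or serum-starved replicate 1, at 0.44, 0.29 and 0.29, whereas its decrease with ADMA was -0.75 (standard error 0.11, adjusted p = 7.8e-05). ASCC3, a helicase that helps to repair alkylated DNA, rose by 0.65 (standard error 0.10) and did not change with ADMA beyond the spread, at -0.13 (standard error 0.09, adjusted p = 0.268). A dimmer ASCC3 probe set gave -0.30 and -0.34 for the 2 comparisons, so that its rise rests on the brighter one.

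Genes of cell death, mitochondria and autophagy divided into several patterns. In serum-starved cells 6 of 7 tested genes were higher, beside 30.3% of all tested genes. With ADMA 5 of 7 were lower, beside 13.8% of all tested genes. ZMAT3, an RNA-binding zinc finger protein, had 8.93, 9.21 and 8.67 in control cells, 11.36, 11.11 and 11.24 in serum-starved cells and 10.08, 10.11, 10.29 and 10.18 with ADMA, 3 ranges with no overlap. It rose 4.95-fold (2.31, standard error 0.12, adjusted p = 3.63e-10), fell with ADMA, at -1.07 (standard error 0.11, adjusted p = 3.31e-06), and stayed above control cells by 1.23 (standard error 0.11, adjusted p = 2.11e-07). PHLDA3, which blocks the kinase AKT at the membrane, had 9.58, 9.52 and 9.41 in control cells, 10.43, 10.66 and 10.91 in serum-starved cells and 10.00, 9.94, 10.16 and 9.96 with ADMA. It kept the same order as ZMAT3, with differences of 1.16 (standard error 0.11), -0.65 (standard error 0.10) and, against control cells, 0.52 (standard error 0.10).

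SPATA18, also called MIEAP, which acts in mitochondrial quality control, had 8.97, 8.60 and 9.04 in control cells, 10.12, 10.25 and 9.91 in serum-starved cells and 8.86, 8.62, 8.80 and 8.73 with ADMA. Its ADMA arrays overlapped with control cells, after a rise of 1.22 (standard error 0.13, adjusted p = 7.29e-07) and a decrease with ADMA of -1.34 (standard error 0.12, adjusted p = 9.14e-07). DRAM1, a lysosomal membrane protein of autophagy, rose by 0.54 (standard error 0.07) and fell with ADMA, at -0.79 (standard error 0.07). All 4 of its ADMA arrays, at 10.53, 10.48, 10.34 and 10.42, were below the 3 control arrays, at 10.79, 10.67 and 10.61, but the fold of 1.19 missed the threshold (adjusted p = 0.00545).

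PERP and TP53I3 rose with serum starvation and did not fall with ADMA. PERP, a membrane protein of desmosomes that also takes part in cell death, had 13.43, 13.55 and 13.53 in control cells, 14.05, 14.12 and 14.16 in serum-starved cells and 14.11, 14.07, 14.08 and 14.10 with ADMA. It rose by 0.61 (standard error 0.05, adjusted p = 9.03e-08) and differed by -0.02 between ADMA-treated and serum-starved cells (standard error 0.05, adjusted p = 0.781), within the spread of the arrays. The second-brightest PERP probe set differed by 0.90 with serum starvation and -0.06 with ADMA. A dimmer one was higher with ADMA, at 0.56. With the mean of its probe sets, some of which lie under the filter, PERP was called as higher with ADMA, at 0.62 (limma adjusted p = 0.00249). Its rise with serum starvation then lost its call. TP53I3, a quinone oxidoreductase, had 10.22, 10.12 and 9.98 in control cells, 10.71, 10.80 and 11.04 in serum-starved cells and 10.75, 10.77, 10.74 and 10.86 with ADMA. Its rise was 0.74 (standard error 0.09, adjusted p = 3.53e-06), and its difference with ADMA -0.07 (standard error 0.08, adjusted p = 0.54). Both stayed above control cells with ADMA, by 0.59 and 0.67, but not past the test with arrays centred on their medians, at 0.08 and 0.16.

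CYFIP2, which links small GTPases to the actin regulator WAVE, went its own way at its brightest probe set. It had 9.65, 9.81 and 9.53 in control cells, 9.70, 9.50 and 9.57 in serum-starved cells and 8.47, 8.55, 8.94 and 9.02 with ADMA. Control and serum-starved cells overlapped, at a difference of -0.08 (standard error 0.14, adjusted p = 0.645), and every ADMA array was below both. CYFIP2 fell with ADMA, at -0.84 (standard error 0.13, adjusted p = 0.00016) against serum-starved cells and -0.92 (standard error 0.13, adjusted p = 2.83e-05) against control cells. A dimmer CYFIP2 probe set differed by 0.45 with serum starvation, -0.72 with ADMA and -0.27 between ADMA-treated and control cells.

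**Figure D3:**
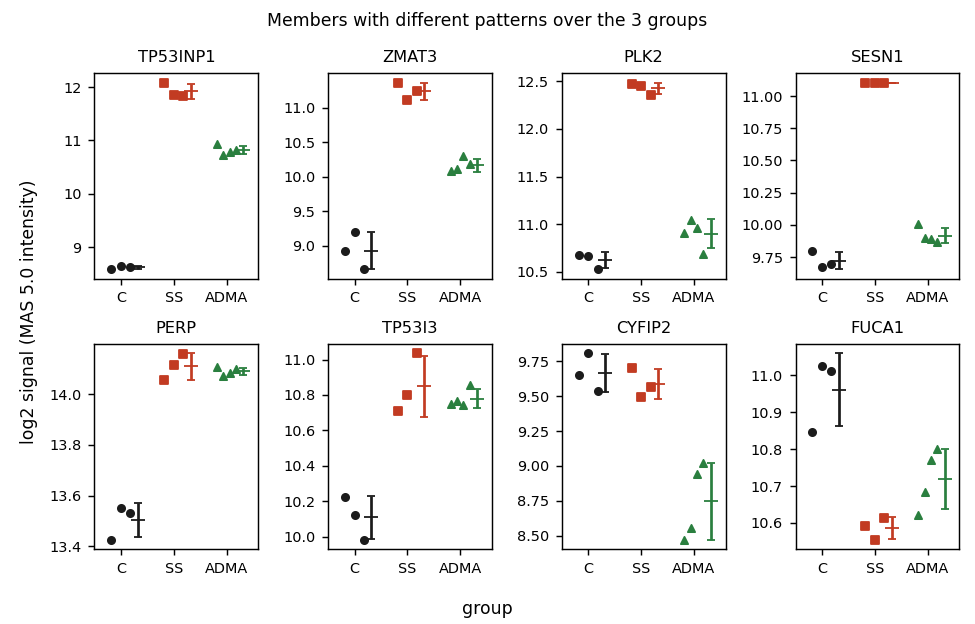
Log2 signal (vertical axis, scale set for each gene) of 8 p53 target genes on each array of control (C, circles), serum-starved (SS, squares) and ADMA-treated cells (ADMA, triangles), with the mean and SD of each group beside the points. ADMA arrays lie between the other groups in TP53INP1 and ZMAT3, close to control cells in PLK2 and SESN1, beside serum-starved cells in PERP and TP53I3, and below both in CYFIP2. In FUCA1 the serum-starved arrays are the lowest.

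Among the remaining enzymes and other proteins, SUSD6 was the 1 with a large change. SUSD6, a membrane protein known to slow growth after DNA damage, had 8.96, 8.81 and 8.85 in control cells, 10.66, 10.42 and 10.51 in serum-starved cells and 9.85, 9.53, 9.62 and 9.63 with ADMA, with no overlap between any of the groups. It rose 3.16-fold (1.66, standard error 0.10, adjusted p = 1.72e-09), fell with ADMA, at -0.88 (standard error 0.09, adjusted p = 4.17e-06), and stayed above control cells by 0.78 (adjusted p = 3.65e-06). CES2, a carboxylesterase of intestine, rose by 0.49 (standard error 0.08, adjusted p = 0.000118). Its decrease with ADMA, -0.30 (adjusted p = 0.00682), was the smallest of those called, and the call was lost with quantile normalization, at -0.26, and when any of 5 single arrays was left out (serum-starved replicates 1 and 3 and ADMA replicates 1, 3 and 4), at -0.27 to -0.30.

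FUCA1, a lysosomal fucosidase, was the 1 member that fell with serum starvation. Its signals were 10.85, 11.03 and 11.01 in control cells, 10.59, 10.55 and 10.61 in serum-starved cells and 10.62, 10.68, 10.77 and 10.80 with ADMA. Every serum-starved array was below every other array, at -0.37 against control cells (standard error 0.07, adjusted p = 0.000345), and the difference of 0.13 with ADMA did not pass the test (adjusted p = 0.138). With the mean of its 2 probe sets, the dimmer of which lies under the filter, the difference from control cells was 0.02 and the call was lost. RPS27L, a ribosomal protein paralog that binds MDM2, passed no test at its brightest probe set, where it lay between 14.26 and 14.56 on all 10 arrays. Its 2 other probe sets differed by -1.08 and -0.60 between ADMA-treated and serum-starved cells. With the mean of its probe sets RPS27L was called as lower with ADMA, at -0.55 (limma adjusted p = 3.01e-05). With the probe set at -1.08 in place of the brightest it was called too (limma adjusted p = 4.2e-07). Probe sets of RPS27L can share sequence with RPS27, so that its level is uncertain. CMBL, a cytosolic hydrolase, lay between 12.80 and 13.29 and was not called, with differences of 0.03 (standard error 0.08) and 0.22 (standard error 0.07, adjusted p = 0.0235). Against control cells its difference with ADMA was 0.25 (adjusted p = 0.00809), which missed only the fold and was called with quantile normalization, at 0.33. A dimmer CMBL probe set above the filter differed by 1.17 with serum starvation, -0.18 with ADMA and 0.99 between ADMA-treated and control cells. The CMBL result therefore depends on the probe set.

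Against control cells, ADMA-treated cells were higher in GDF15, TP53INP1, PLK2, DDB2, XPC, ZMAT3, PHLDA3, SUSD6, ASCC3, TP53I3 and PERP, by log2 differences of 0.27 to 2.20, and lower in TRIAP1 and CYFIP2. In the other 17 tested genes the difference was not called and ran from -0.34 to 0.45. GADD45A, TIGAR, DRAM1, FUCA1 and CMBL passed the adjusted p and missed only the fold. A difference that was not called does not show that the levels were equal. With the mean of their probe sets TP53INP1, GDF15 and ASCC3 lost this call, at 0.56, 0.19 and -0.06. These counts turn on the scaling: with arrays centred on their medians, which lowers each difference from control cells by 0.51, TP53INP1 and ZMAT3 alone were higher than control cells and 16 of the 30 genes were lower, beside 9.79% and 49.4% of all genes. With quantile normalization 13 were higher and 2 lower, beside 23.2% and 24.7% of all genes.

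The probe sets of a gene mostly moved together. For 14 tested members with further probe sets at or above the filter, 29 of 33 such probe sets had the sign of the brightest one in serum-starved against control cells and 28 of 33 in ADMA-treated against serum-starved cells, and 24 of 33 in ADMA-treated against control cells. MDM2 had the widest range: its 8 probe sets at or above the filter differed by 0.21 to 4.61 with serum starvation, all upward, and by -2.23 to -0.90 with ADMA, all downward. The 1 with the difference of 4.61 also put ADMA-treated cells 2.49 above control cells, where the brightest probe set put them 0.08 above. FBXO22 had 1 probe set of 5 with a difference of 3.28 against -0.24 to 0.41 in the others. The 5 ZMAT3 probe sets lay between 1.15 and 2.31 and those of PHLDA3 at 1.12 and 1.16.

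**Figure D4:**
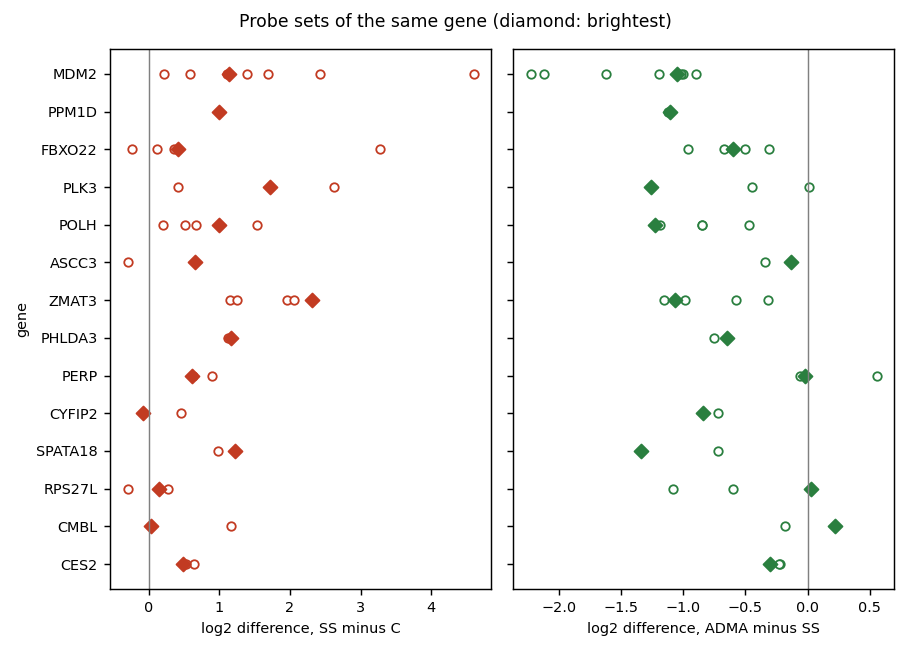
Log2 differences of serum-starved minus control cells (left) and ADMA-treated minus serum-starved cells (right) for the probe sets at or above the filter of 14 p53 target genes, with a diamond for the brightest probe set and open circles for the others. All 8 MDM2 probe sets lie to the right of 0 on the left and to the left of 0 on the right, from 0.21 to 4.61 and from -2.23 to -0.90.

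The genes that regulate p53 showed no common direction. Of 28 listed regulators and partners 24 had a probe set and 23 were tested; 10 rose and 5 fell with serum starvation, at a median of 0.03 over the tested genes, and 4 rose and 7 fell with ADMA. They were called in 65.2% of cases with serum starvation, near the 57.6% of all tested genes, and in 47.8% with ADMA, beside 29.5%. MDM4, the relative of MDM2 that blocks the activation domain of p53, had 9.63, 9.86 and 9.46 in control cells, 11.76, 11.77 and 11.63 in serum-starved cells and 11.10, 11.07, 11.38 and 11.05 with ADMA. It rose by 2.07 (standard error 0.10, adjusted p = 3.3e-10), fell with ADMA, at -0.57 (standard error 0.10), and stayed 1.5 above control cells (standard error 0.10). PPP1R13L, or iASPP, an inhibitor of p53, had 9.35, 9.19 and 9.13 in control cells, 11.17, 10.998 and 10.98 in serum-starved cells and 10.19, 10.22, 10.03 and 10.20 with ADMA, a rise of 1.82 (standard error 0.09) and a decrease with ADMA at -0.89 (standard error 0.08). CHEK1, a checkpoint kinase of replication stress that phosphorylates p53, went the other way, with 10.81, 10.53 and 10.68 in control cells, 8.68, 8.68 and 8.60 in serum-starved cells and 9.41, 9.24, 9.22 and 9.36 with ADMA. It fell with serum starvation, at -2.02 (standard error 0.10, adjusted p = 1.57e-10), and rose with ADMA by 0.65 (standard error 0.09, adjusted p = 4.41e-05). CHEK2, the second checkpoint kinase, named after its values were seen, differed by -1.25 (standard error 0.11) and 0.47 (standard error 0.11).

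Among 30 further p53 targets that are not members, 26 had a probe set and 25 were tested, of which 15 rose and 3 fell with serum starvation and 2 rose and 11 fell with ADMA. Among all tested genes 30.3% rose and 27.3% fell with serum starvation, and 15.7% rose and 13.8% fell with ADMA. Their median over the measured genes was 0.66 and -0.34. The 3 largest called changes were those of ACER2, an alkaline ceramidase, at 2.52 (standard error 0.35), PRDM1, a transcriptional repressor, at 2.42 (standard error 0.11), and TNFRSF10D, a decoy receptor for TRAIL, at 2.33 (standard error 0.09). On 1 of the 3 control arrays ACER2 was below background. With ADMA PRDM1 and TNFRSF10D fell, at -0.98 and -1.16, and ACER2 differed by -1.13 (adjusted p = 0.0114), which did not pass the test. CDKN1A, the p21 inhibitor of cyclin-dependent kinases, named after its values were seen, had 10.996, 10.96 and 10.75 in control cells, 12.76, 12.56 and 12.80 in serum-starved cells and 11.66, 11.51, 11.56 and 11.46 with ADMA, so that the 3 groups did not overlap. It differed by 1.80 (standard error 0.08) with serum starvation and -1.16 (standard error 0.08) with ADMA. The genes that fell with serum starvation were BAX, a pore-forming protein of apoptosis, at -0.71, GTSE1, a microtubule-binding protein that restrains p53, at -1.50, and VDR, the vitamin D receptor, at -0.84. The 2 that rose with ADMA were GTSE1 and THBS1, the matrix protein thrombospondin 1, by 0.96 and 0.42.

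**Figure D5:**
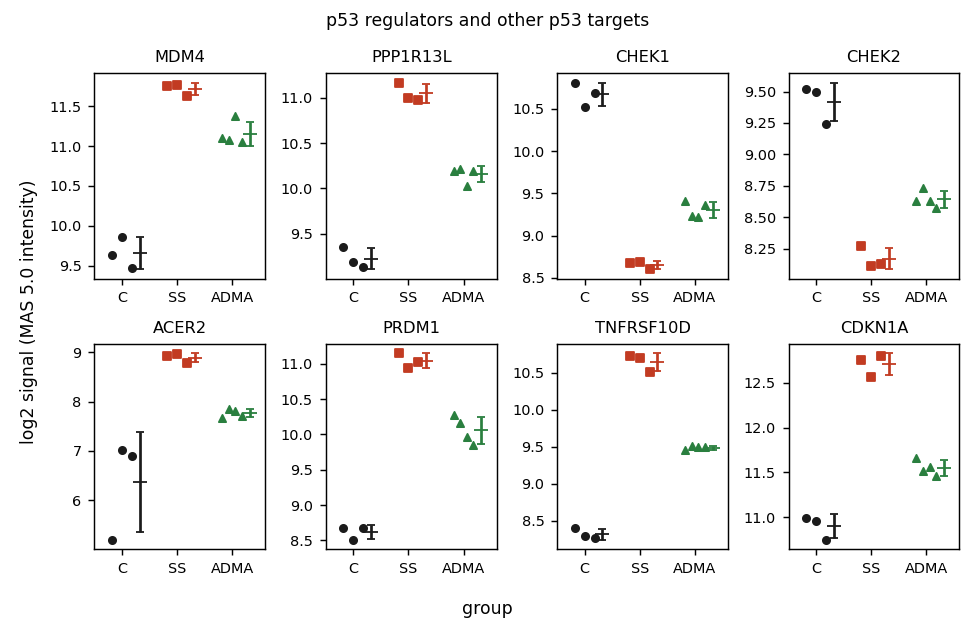
Log2 signal (vertical axis, scale set for each gene) of 4 p53 regulators (MDM4, PPP1R13L, CHEK1, CHEK2) and 4 further p53 targets (ACER2, PRDM1, TNFRSF10D, CDKN1A) on each array of control (C, circles), serum-starved (SS, squares) and ADMA-treated cells (ADMA, triangles), with the mean and SD of each group. The ADMA arrays lie between the other 2 groups in all 8 genes, and the serum-starved arrays are the lowest in CHEK1 and CHEK2.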

How the data were processed

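Total RNA of 10 LoVo cultures was hybridized to Affymetrix HG-U133 Plus 2.0 arrays. The deposited intensities, linear signals of each probe set, were made by the authors with MAS 5.0 and given equal trimmed means. Here log2 was taken with no pseudocount. Of 54675 probe sets, 41091 carry 1 gene symbol in the platform annotation. The test was that of limma (version 3.58.1, R version 4.3.3, lmFit and eBayes with trend, all 10 arrays), with the thresholds of the study's SAM analysis. SAM itself was not run, because it permutes the arrays.

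The members and lists were chosen with earlier results of these data known. Values on every array are printed for members whose log2 difference was called and at least 1 in size with serum starvation or ADMA, and for TRIAP1, CYFIP2 and FUCA1, which went another way, and for PERP and TP53I3, chosen after their values were seen. From each further list the 3 largest called changes are named. The background level of an array is the 95th percentile of 27 Bacillus control probe sets. On simulated data for serum starvation over 12344 genes, 31.3, 73.1 and 90.9% of seeded log2 changes of 0.5, 1 and 2 were called, with 1 false call. These changes were seeded in 67, 67 and 66 genes. In the data 57.6% of the tested genes were called, so the adjustment of p differs and these rates need not hold there. No 2 arrays held identical values, and correlations within a group were 0.937 to 0.946. Alternatives were quantile normalization, median centring, other filters and thresholds, signals under background set to it, a pseudocount of 16, no trend, 2 groups alone, other choices of probe set, a replicate block and each array left out. Figures were drawn with matplotlib 3.10.9.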

Additional observations from a re-analysis of the deposited data

How the results depend on the processing

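Log2 differences are written here as SS-C (serum-starved against control cells), ADMA-SS and ADMA-C. Over 22 alternatives the 90 single-gene results changed direction in 45 cases, 6 of them among results that had been called as reported above. In all, 54 calls were lost, 43 were gained and 0 turned from one called direction to the other. With arrays centred on their medians 3 genes were lower in SS-C, beside 42% of all genes. In ADMA-C 2 were higher and 16 lower, beside 9.79% and 49.4% of all genes, and the median was -0.32. With all probe sets of a gene averaged 0 genes were lower in SS-C, beside 23.7% of all genes. In ADMA-SS 1, PERP, was then higher, beside 12.7% of all genes. With no _x_ or _s_ probe sets, which left 24 genes tested, 1, again PERP, was higher in ADMA-SS, beside 13.5%. RPS27L was called as lower in ADMA-SS in both of these settings. The averaged probe sets also took the calls of FUCA1, PERP and ASCC3 in SS-C and of PLK3 and CES2 in ADMA-SS. In ADMA-C they took those of TP53INP1 (0.56), GDF15 (0.19) and ASCC3, and gave 5: MDM2 (0.71), PLK3 (1.02), CMBL (0.57), CES2 (0.30) and RPS27L. AEN has 1 probe set, and its SS-C difference stayed at 0.41. It lost its call in this setting, where 10984 genes were tested, at a limma adjusted p of 0.0101. The cause of the changes in the averaged genes was not tested. Among these genes, the averages of FUCA1, PERP, TP53INP1, GDF15, MDM2 and CMBL include probe sets under the filter. The number of arrays limits the precision, and scaling and the choice of probe set move single values.

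Centring turned SS-C to -0.30 for CCNG1, -0.29 for TRIAP1, -0.25 for RPS27L and -0.36 for CMBL, and ADMA-SS to -0.08 for CCNG1 and -0.09 for RPS27L. It turned ADMA-C to -0.42 for MDM2, -0.37 for CCNG1, -0.31 for SESN1 and GADD45A, -0.19 for GDF15, -0.23 for PLK2, -0.05 for PLK3, -0.36 for RRM2B, -0.09 for DDB2, -0.14 for XPC, -0.33 for RPS27L, -0.25 for CMBL and -0.32 for CES2. Quantile normalization turned ADMA-SS to -0.14 for CCNG1 and -0.23 for RPS27L, and ADMA-C to -0.09 for RPS27L. With the mean of the probe sets SS-C was 0.18 for CYFIP2 and 0.02 for FUCA1, ADMA-SS 0.62 for PERP and -0.55 for RPS27L, and ADMA-C 0.18 for FBXO22, -0.06 for ASCC3, 0.07 for SPATA18, 0.11 for FUCA1 and -0.51 for RPS27L. Without _x_ or _s_ probe sets RPS27L was at -0.30, -1.08 and -1.38 in SS-C, ADMA-SS and ADMA-C, and PERP at 0.56 in ADMA-SS. The ADMA-SS and ADMA-C differences of RPS27L were then called.

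With each array left out in turn, 23 to 24 genes were higher and 1 lower in SS-C. In ADMA-SS 0 were higher and 22 to 23 lower. In ADMA-C 9 to 11 were higher and 2 to 4 lower, and 4 were lower without ADMA replicate 1. Among all genes 28 to 30.2% were higher and 25.1 to 27.3% lower in SS-C. The shares were 12.5 to 15.5% and 10.5 to 13.8% in ADMA-SS, and 24.8 to 26.5% and 21.1 to 23.3% in ADMA-C. Small differences changed sign: SS-C of CMBL ran from -0.03 to 0.10, ADMA-SS of CCNG1 from -0.02 to 0.10, of TP53I3 from -0.14 to 0.02, of PERP from -0.05 to 0.00 and of RPS27L from -0.02 to 0.08, and ADMA-C of MDM2 from -0.03 to 0.18.

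The groups share replicate numbers, but the deviations of same-numbered arrays correlated at -0.0735 to 0.102, so the numbers were not taken as pairs. With a replicate block 24 genes were higher and 1 lower in SS-C, beside 30.1% and 27.1% of all genes. In ADMA-SS 0 were higher and 22 lower, beside 13.3% and 11.7%. In ADMA-C 11 were higher and 3 lower, beside 25.6% and 22.5%. The block took the call of CES2 in ADMA-SS (-0.27, limma adjusted p = 0.0286), gave 1 to FUCA1 in ADMA-C (-0.27) and put RPS27L at 0.00 in ADMA-SS.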
